A study of Mus musculus with 27 samples.

Results

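The genes described here are 10 markers of the endothelial and blood fates of mesoderm, taken by name out of the 25209 genes listed in each of 8 tables. They are Kdr, Pecam1, Cdh5, Tek and Tie1, which mark endothelial cells, Etv2, which stands at the head of both fates, and Tal1, Gata1, Gata2 and Lmo2, transcription factors of blood progenitors. All 10 were listed in all 8 tables. RNA of V6.5 mouse embryonic stem cells was sequenced in 27 libraries. WT cells were compared with KO4 and KO8, 2 clones in which a terminator had been placed behind exon 3 of Zfp512b. Each clone is a single line, and the WT cells had not been through editing and selection. The naive cells (Day 0) were held in 2iLIF medium and gave 3 libraries per group. The primed cells (Day 2), the CM cells (cardiomyocyte differentiation, Day 7.5, hanging-drop embryoid bodies with vitamin C) and the NPC cells (neural progenitor differentiation, Day 10, embryoid bodies with retinoic acid) gave 2 libraries per group each. All stages of a clone carry the same allele. The CM stage is the main stage here, because mesoderm and its derivatives arise in it.

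Endothelial and blood cells arise close together in the embryo, from mesoderm that carries the VEGF receptor Kdr. Etv2, an ETS factor, starts both programs, and Tal1, Lmo2 and a GATA factor bind DNA together at genes of blood progenitors. Gata1 drives red cell and platelet lineages, while Gata2 is used in earlier progenitors. Pecam1 and Cdh5 (VE-cadherin) hold endothelial cells together, and Tek and Tie1 are the receptors of the angiopoietin system.

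The stretch before the start site is shown for Gata1 and Tal1, and for Etv2, the factor at the head of both fates. Of the 5 genes tested at CM, Gata1 and Tal1 differed most between the clones. The sequences are 250 bases long, end at the base before the annotated start, come from RefSeq (GRCm38.p6, whereas the reads were counted on mm9), and carry capitals where a script found GATAA (bound by GATA factors), GGAAG (ETS factors) or CANNTG (the E-box, bound by Tal1 and its partners) on either strand. For Tal1 the first of 2 starts is given.
Gata1 (chrX:7967911-7968160, minus strand): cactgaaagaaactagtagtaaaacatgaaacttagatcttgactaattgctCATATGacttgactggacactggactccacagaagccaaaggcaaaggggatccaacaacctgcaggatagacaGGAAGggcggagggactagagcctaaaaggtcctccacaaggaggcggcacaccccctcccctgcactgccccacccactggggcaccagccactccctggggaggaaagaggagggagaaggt
Tal1 (chr4:115056176-115056425, plus strand): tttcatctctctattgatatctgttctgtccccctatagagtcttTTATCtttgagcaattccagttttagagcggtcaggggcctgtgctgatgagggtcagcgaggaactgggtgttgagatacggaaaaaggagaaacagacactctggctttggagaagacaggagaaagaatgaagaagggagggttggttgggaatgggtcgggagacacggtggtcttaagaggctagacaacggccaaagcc
Etv2 (chr7:30635853-30636102, minus strand): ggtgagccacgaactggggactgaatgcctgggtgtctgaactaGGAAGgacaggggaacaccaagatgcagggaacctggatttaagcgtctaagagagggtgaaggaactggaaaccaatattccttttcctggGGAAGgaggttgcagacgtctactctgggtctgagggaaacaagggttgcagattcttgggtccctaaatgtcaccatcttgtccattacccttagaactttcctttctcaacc
A promoter sequence was found for 7 of the 10 genes (9 starts), not for Pecam1, Cdh5 and Lmo2. GATAA was present at 1 of the 9 starts, the one of Tal1 shown, 205 bases before the start, and at 22.6% of all 32851 promoters. GGAAG stood at 5 of the 9 starts and at 64.1% of all promoters, and CANNTG at 4 of the 9 and at 66.2%. These shares describe letters in a short window, not binding.

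The tables hold no reads per library. Each holds a base mean, the mean of the normalized reads over the WT and KO libraries that were compared. Because a base mean is a sum of whole reads divided by fixed library factors, the reads of single libraries were worked out from the 2 tables of a stage wherever exactly 1 set of whole numbers gave both base means. This was so at CM for Etv2, Tal1, Gata1, Gata2 and Lmo2. For Kdr, Pecam1, Cdh5, Tek and Tie1, with base means above 1000, many sets gave the same base means, and only the authors' means are reported for them at CM. Reads on genes per library numbered 15.1 M to 18.2 M in primed cells, 16.1 M to 18.6 M in NPC, 17.1 M to 19.3 M at CM and 34.2 M to 39.7 M in naive cells. The labels do not say that libraries of a group came from separate cultures, so the p-values below measure the spread between these libraries, which may be technical.

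The targeted gene was checked first. Zfp512b, on chromosome 2 of mm9 (181316808 to 181327508), had 1199 and 1076 reads in the WT libraries at CM, 179 and 199 in KO4, and 165 and 169 in KO8. The log2 fold change was -2.47 in KO4 (SE 0.13, adjusted p = 1.29e-08) and -2.73 in KO8 (SE 0.13, adjusted p = 7.35e-08; limma with voom weights, Benjamini-Hochberg over all genes tested, here and throughout). In primed cells it had 977 and 979 reads in WT against 135 to 213 in the KO libraries. Genes on chromosome 8 stood higher as a group in both clones at every stage, and at CM their median log2 fold change lay 0.54 above that of all genes in KO4 and 0.53 above it in KO8. Of the 10 genes only Cdh5 lies on chromosome 8.

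The 2 WT libraries at CM stood apart in endoderm genes, whose summed level over 7 tested genes was 2182 normalized reads in the first and 817 in the second, against 277 to 395 in KO4 and 2845 to 3121 in KO8. Libraries are named here by the order in which their reads are given. The blood list summed to 5124 and 4443 in WT, to 1048 to 1074 in KO4 and to 12960 to 13292 in KO8, and the endothelial list to 18486 and 20494, 938 to 1187 and 13729 to 13785. The part of the first WT library in the results was not tested beyond leaving it out, when 5 members were called in KO4 and 3 in KO8 at CM.

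At CM, Tal1 and Gata1 moved in opposite directions in the clones. Tal1, Gata1, Gata2, Lmo2 and Etv2 were all lower in KO4 than in WT, by 2.84-fold for Gata2 to 16.8-fold for Tal1. In KO8, Tal1 was 2.56-fold and Gata1 6.18-fold higher than in WT, Lmo2 was 1.24-fold lower, and Etv2 and Gata2 did not pass the test. Hence 5 of 5 tested members were called in KO4 (all lower; 45.6% of all 11665 genes tested were called in either direction, 25.1% lower), and 3 of 5 in KO8 (21.7% of all genes called, 10.7% higher). With a background this high the count alone says little about the members in KO4. In bulk RNA, fewer cells of a kind and less RNA per cell cannot be told apart.

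**Figure D1:**
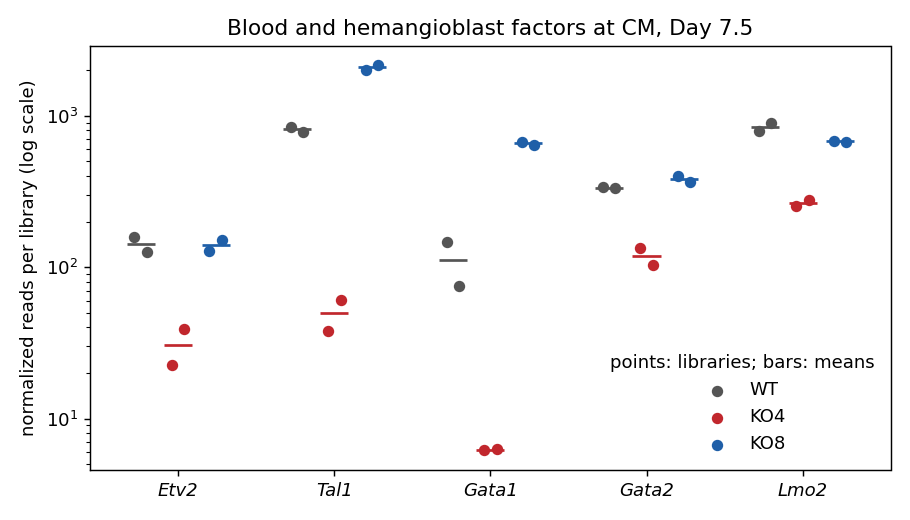
Normalized reads (log scale) of 5 transcription factors in each library at CM, with 2 libraries per group as points and group means as bars. In every gene both KO4 libraries lie below all WT and KO8 libraries (as in 29.3% of all genes tested). For Tal1, Gata1 and Gata2 the KO8 libraries lie above the WT libraries as well (as in 9.29% of all genes tested), though Gata2 was not called in KO8.

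Tal1, the basic helix-loop-helix factor without which no blood forms, lies on chromosome 4 (114729031 to 114744360, plus strand). It had 902 and 797 reads in the WT libraries, 37 and 58 in KO4, and 2137 and 2104 in KO8. The groups did not overlap. The log2 fold change was -4.07 in KO4 (SE 0.25, adjusted p = 4.98e-08) and 1.35 in KO8 (SE 0.08, adjusted p = 5.04e-07).

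Gata1, the erythroid GATA factor, lies on the X chromosome (7536386 to 7555197, minus strand). It had 158 and 76 reads in WT, 6 and 6 in KO4, and 715 and 628 in KO8. In proportion the WT libraries differed from each other more than those of either clone, but the 3 groups did not overlap. The log2 fold change was -3.98 in KO4 (SE 0.73, adjusted p = 0.000555) and 2.63 in KO8 (SE 0.21, adjusted p = 2.61e-06). Without the first WT library these values of Gata1 were -3.48 and 3.13, and without the second -4.45 and 2.16, with both calls kept.

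Gata2, the GATA factor of earlier progenitors, which endothelial cells also use, lies on chromosome 6 (88143885 to 88157024, plus strand). It had 363 and 337 reads in WT, 131 and 98 in KO4, and 427 and 358 in KO8. Only the KO4 libraries stood apart by the test, with a log2 fold change of -1.50 (SE 0.17, adjusted p = 1.20e-05) against 0.20 in KO8 (SE 0.12, adjusted p = 0.290).

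Lmo2, the adaptor that joins Tal1 to GATA factors, lies on chromosome 2 (103798143 to 103822035, plus strand). It had 846 and 913 reads in WT, 246 and 265 in KO4, and 724 and 657 in KO8. It fell in both clones, by 1.66 on the log2 scale in KO4 (SE 0.12, adjusted p = 2.15e-07) and by 0.31 in KO8 (SE 0.09, adjusted p = 0.0230). The call in KO8 was lost in limma-trend (adjusted p = 0.0619 with a pseudocount of 1) and without the second WT library (0.0984), the first KO8 library (0.156) or the second (0.143), in the order of the reads given.

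Etv2, on chromosome 7 (31418635 to 31421308, minus strand), had 170 and 128 reads in WT, 22 and 37 in KO4, and 137 and 147 in KO8. The WT and KO8 libraries overlapped. The log2 fold change was -2.24 in KO4 (SE 0.33, adjusted p = 0.000102) and -0.03 in KO8 (SE 0.20, adjusted p = 0.940).

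Levels between genes were compared per length, as RPKM (reads scaled to exon length and library depth). In WT at CM, Lmo2 stood highest (21.7 ± 2.0, SD, n = 2), before Tal1 (10.3 ± 0.50), Gata2 (5.57 ± 0.076), Etv2 (5.32 ± 0.86) and Gata1 (2.54 ± 1.2). Gata2 and Etv2 did not differ beyond their spread. In KO8 the order was another. Tal1 led with an RPKM of 26.4 ± 1.3 (SD, n = 2), followed by Lmo2 (17.4 ± 0.13), Gata1 (15.0 ± 0.45), Gata2 (6.37 ± 0.40) and Etv2 (5.22 ± 0.58). In KO4 the RPKM of Lmo2 was 6.82 ± 0.48, that of Gata2 1.97 ± 0.37 and that of Etv2 1.15 ± 0.43, and Tal1 (0.629 ± 0.21) and Gata1 (0.142 ± 0.0025) came last. Tal1 and Gata1 thus ranked lowest in KO4 and, in KO8, Tal1 first and Gata1 behind Lmo2.

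The clones were also set against each other directly, which leaves out the shared WT libraries. All 5 tested genes were higher in KO8 than in KO4 (44.7% of all genes tested were called, 24.7% higher in KO8). The difference was 5.42 for Tal1 on the log2 scale (SE 0.25, adjusted p = 5.39e-09) and 6.61 for Gata1 (SE 0.71, adjusted p = 6.07e-06). For Etv2 it was 2.21 (SE 0.33), for Gata2 1.70 (SE 0.17) and for Lmo2 1.35 (SE 0.12), each with an adjusted p of at most 0.000122. In each of the 5 genes both KO8 libraries lay above both KO4 libraries, as they did in 38.4% of all genes tested.

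For the 5 endothelial genes the base means give a comparison of the clones with no test. With the KO8 table brought to the scale of the KO4 table through their common WT libraries, the ratio of its base mean to that of the KO4 table is a lower bound of the KO8 over KO4 ratio whenever it is above 1, since both base means hold the same WT reads. How far the true ratio lies above the bound depends on the WT level. For 1018 genes with recovered reads and a ratio of at least 1.5, without an upper limit, the fitted KO8 over KO4 fold had a median of 7.03. Most of these genes had base means below 1000. The 5 endothelial genes had higher base means and ratios of 1.47 to 1.84, so this median need not hold for them.

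Kdr, the VEGF receptor, lies on chromosome 5 (76328852 to 76374483, minus strand). The authors' base mean at CM was 3241 in the KO4 table and 5167 in the KO8 table, a ratio of 1.55 on a common scale. The mean of the KO8 libraries was therefore at least 1.55 times that of KO4 and at least 55.0% of the WT mean, and their difference was 3561 normalized reads.

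Pecam1 (chromosome 11, 106515531 to 106611942, minus strand), an adhesion molecule of endothelial cells and platelets, had authors' base means of 1356 and 2047, a ratio of 1.47. Cdh5 (chromosome 8, 106625525 to 106668402, plus strand) had 2887 and 4926, a ratio of 1.66, and the median log2 difference between the clones was 0.09 over the genes of chromosome 8, 0.05 above that of all genes. For Pecam1 the mean of KO8 was at least 46.7% of that of WT and for Cdh5 at least 65.8%.

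Tek (chromosome 4, 94405980 to 94541667, plus strand), the angiopoietin receptor, had authors' base means of 1552 and 2947, the largest ratio of the endothelial genes at 1.84. The mean of KO8 was at least 84.5% of that of WT. Tie1 (chromosome 4, 118143796 to 118162666, minus strand), its coreceptor, had base means of 1871 and 3054 and a ratio of 1.59. The WT level itself is bounded only from above for these genes, at 3105 normalized reads for Tek and 3741 for Tie1.

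Measured in this way, all 10 genes had a ratio above 1 at CM (51.2% of the 13928 genes whose base means reached 10), and 8 of 10 had a ratio of at least 1.5 (8.77% of all genes). Their ratios ranged from 1.37 for Lmo2 to 6.55 for Gata1, with a median of 1.61 beside 1.01 over all genes. The ratio of Gata1 was reached by 0.151% of genes and that of Tal1, at 3.35, by 0.854%. Endothelial and blood genes thus pointed the same way between the clones, and among the 10 the largest ratios were those of Gata1 and Tal1.

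**Figure D2:**
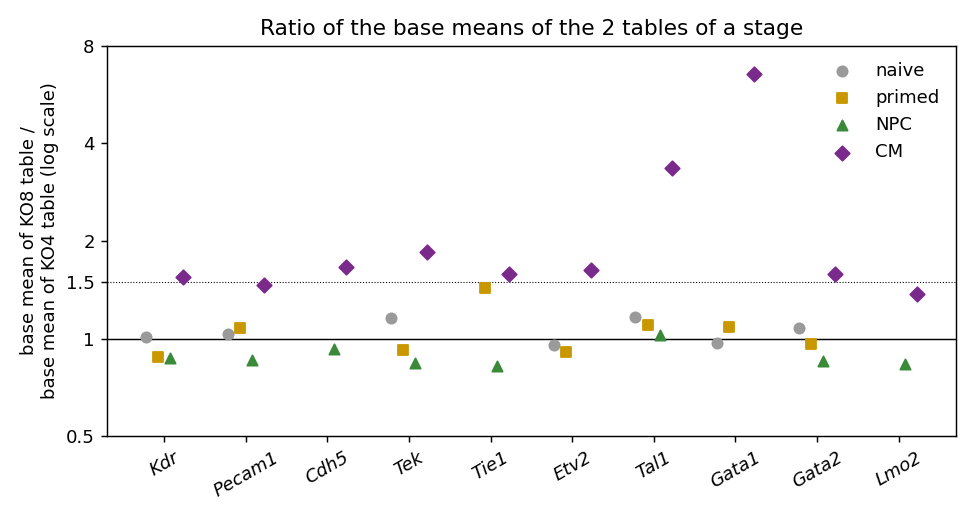
Base mean of the KO8 table over that of the KO4 table of the same stage (log scale), for each of the 10 genes at each stage where its base means reached 10. The solid line marks equality and the dotted line 1.5. The 10 CM ratios lie between 1.37 and 6.55, and those of the other stages between 0.825 and 1.43.

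A wider list of 40 endothelial genes held 38 of the tables' genes, and 27 of them could be tested at CM. In KO4, 26 of the 27 fell and 0 rose (25.1% of all genes tested fell), with a median log2 fold change of -5.08 against -0.06 for all genes. In KO8, 19 fell and 5 rose (11% and 10.7% of all genes), with a median of -0.59. The 19 genes that fell in KO8 also fell in KO4 (6.92% of all genes fell in both), and this count was 12 in limma-trend with a pseudocount of 0.5. All 27 were called higher in KO8 than in KO4, as were 24.7% of all genes tested.

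Mmrn2, an endothelial matrix protein, had 1306 and 1461 reads in WT, 46 and 39 in KO4, and 519 and 539 in KO8. Its log2 fold change was -4.89 in KO4 (SE 0.28, adjusted p = 3.03e-08) and -1.35 in KO8 (SE 0.11, adjusted p = 2.04e-06). Icam2, an adhesion molecule, had 631 and 731 reads in WT, 0 in both KO4 libraries, and 239 and 255 in KO8. With 3 counts over the group as floor, Icam2 was 420-fold lower in KO4. A fragment mostly gave 2 reads, so folds from this floor, here and below, are no strict lower limits. Both genes lay between KO4 and WT in KO8.

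Sox18 and Sox7, endothelial SOX factors, fell by 6.31 and 5.21 on the log2 scale in KO4 (SE 0.39 and 0.34) and by 0.82 and 0.95 in KO8 (SE 0.09 and 0.10). Emcn, a sialomucin of venous and capillary endothelium, had 613 and 778 reads in WT, 3 and 6 in KO4, and 245 and 235 in KO8. Notch4, a Notch receptor of endothelial cells, changed by -2.67 in KO4 (SE 0.15) and by -1.27 in KO8 (SE 0.11). The adjusted p of these 4 genes was at most 2.35e-05 in both clones, but that of Sox18 in KO8 was 0.0647 in limma-trend with a pseudocount of 1. The endothelial genes called in opposite directions, lower in KO4 and higher in KO8, were Vwf, Aplnr, Hhex and Lyve1 (named after their values were seen). Hhex is shared with endoderm and blood, and Aplnr with early mesoderm.

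Of 18 genes of the VEGF and angiopoietin systems, 9 could be tested at CM. In KO4, 5 fell and 1 rose (25.1% and 20.5% of all genes), and in KO8, 4 fell and 1 rose (11% and 10.7%). Ptprb, the phosphatase that restrains Tek, had 1083 and 788 reads in WT, 8 and 3 in KO4, and 255 and 252 in KO8 (adjusted p = 7.87e-06 and 4.18e-06). Flt4, the receptor of Vegfc, fell by 3.30 on the log2 scale in KO4 (SE 0.15) and by 0.37 in KO8 (SE 0.07), and Pgf, a ligand of the family, by 2.81 (SE 0.24) and 0.61 (SE 0.13). The call of Pgf in KO8 was lost without the first KO8 library (adjusted p = 0.0547) or the second (0.0953). Esm1, a tip cell product, had 86 and 164 reads in WT and 0 in both KO4 libraries (77.6-fold lower with the floor of 3 counts). In KO8 it had 48 and 22 reads. Its KO8 call was lost without the first KO8 library (log2 fold change -2.30) or the second (-1.32).

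Vegfc and Angpt2, ligands named after their values were seen, went other ways. Vegfc had 552 and 744 reads in WT, 1254 and 1243 in KO4, and 667 and 557 in KO8. Angpt2, a ligand of Tek, had 201 and 149 reads in WT, 48 and 55 in KO4, and 491 and 364 in KO8. Both lie on chromosome 8. Angpt1, the other main ligand of Tek, had 573 to 753 reads in all 6 libraries and Vhl 671 to 829, and neither was called in a clone.

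The blood list held 39 genes, of which 32 could be tested at CM. In KO4, 26 fell and 1 rose (25.1% of all genes fell). The median log2 fold change was -4.15, or -3.83 with the 4 genes at 0 reads set to the floor of 3 counts. In KO8, 23 rose and 0 fell (10.7% of all genes rose), with a median of 1.59. The same 20 genes fell in KO4 and rose in KO8, a pattern held by 3.45% of all genes tested. Without 1 library the 20 blood genes became 15 to 20, the fewest without the first KO4 library. The blood list was thus called more often in opposite directions in the clones (20 of 32) than the endothelial list (4 of 27), a difference that was not tested and that the plot of both clones shows.

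**Figure D3:**
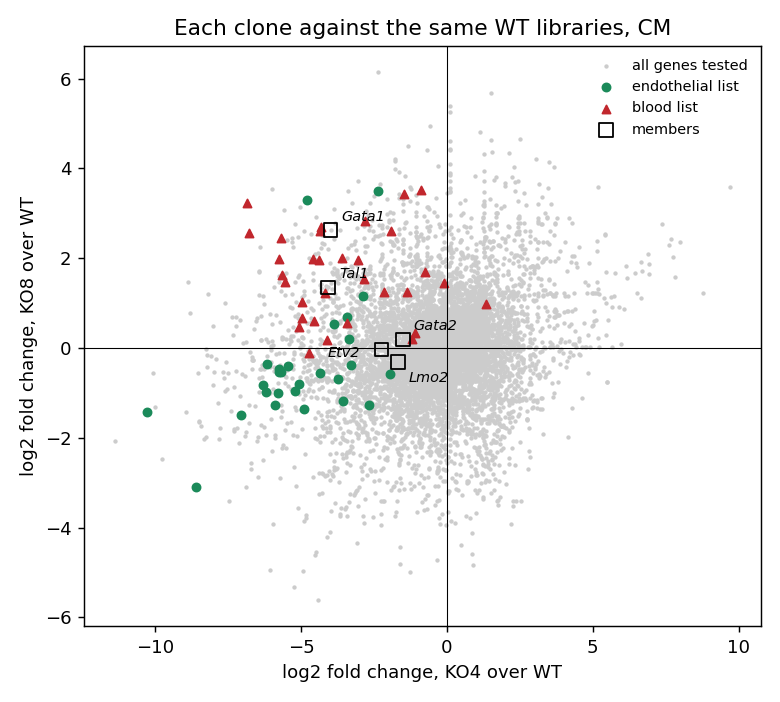
Log2 fold change of KO8 over WT against that of KO4 over WT at CM for all 11665 genes tested (grey), the endothelial list (circles), the blood list (triangles) and the 5 tested members (squares). Both axes share the WT libraries, and genes at 0 reads in KO4 stand at their fitted value. Of 32 blood genes 20 were called lower in KO4 and higher in KO8 (upper left), and of 27 endothelial genes 19 lower in both (lower left).

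The 6 blood genes with the smallest p in this pattern are given here, a choice made after their values were seen. Alas2, the first enzyme of heme synthesis in red cells, had 408 and 386 reads in WT, 17 and 13 in KO4, and 1591 and 1481 in KO8. Its log2 fold change was -4.57 in KO4 (SE 0.35, adjusted p = 3.45e-07) and 1.98 in KO8 (SE 0.09, adjusted p = 7.35e-08). Slc4a1, the anion exchanger of red cells, had 231 and 200 reads in WT, 2 and 6 in KO4, and 696 and 607 in KO8. Both are genes of maturing red cells.

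Nfe2, a factor of platelets and red cells, had 265 and 201 reads in WT, 5 and 19 in KO4, and 918 and 851 in KO8. Itga2b, an early marker of blood progenitors and of megakaryocytes, had 706 and 506, 37 and 24, and 1455 and 1291 reads in the same order. Add2 changed by -2.85 in KO4 (SE 0.23) and by 1.54 in KO8 (SE 0.10). Trim10 had 61 and 58 reads in WT, 0 in both KO4 libraries (36.6-fold lower with the floor of 3 counts), and 374 and 318 in KO8. In these 6 genes, chosen for the pattern, the KO4 libraries lay below WT and the KO8 libraries above it, as in 9.29% of all genes tested.

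Myb, a factor of definitive blood progenitors, was the 1 gene of the list that moved the same way in both clones by the test. It had 82 and 85 reads in WT, 199 and 189 in KO4, and 174 and 148 in KO8, with log2 fold changes of 1.33 (SE 0.19, adjusted p = 8.46e-05) and 0.98 (SE 0.20, adjusted p = 0.00305). Of the leukocyte genes, Ptprc and Tyrobp stayed at 34 reads or fewer in every library and were called in neither clone against WT. Spi1, Laptm5 and Vav1, other leukocyte genes of the list, were among the 20 lower in KO4 and higher in KO8 (named after their values were seen). Laptm5 had 240 and 136 reads in WT, 52 and 27 in KO4, and 478 and 375 in KO8.

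For the embryonic globins only base means were available at CM. Hba-x had authors' base means of 1067 in the KO4 table and 6400 in the KO8 table, a ratio of 5.83. Hbb-bh1 had 1162 and 6434, a ratio of 5.38, and Hbb-y 617 and 1885, a ratio of 2.97. These are the globins of the first, yolk sac wave of red cells. The adult globins Hba-a1, Hba-a2, Hbb-b1 and Hbb-b2 were listed at 0 in both tables, and as near-identical copies their values are uncertain.

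Other lineages moved at CM as well, and their part in the values above was not tested. The shares of all genes to set beside the counts of these lists are 25.1% lower and 20.5% higher in KO4, and 11% lower and 10.7% higher in KO8. Cardiomyocyte genes, the stage's own markers, were present, with authors' base means for Tnnt2 of 3073 and 4657 and for Myh6 of 5070 and 7327 in the 2 tables. All 10 tested genes of that list fell in KO4, and in KO8 5 fell and 1 rose. Actn2 fell by 4.80 on the log2 scale in KO4 (SE 0.22) and by 0.50 in KO8 (SE 0.07), and Tnni3 by 3.65 (SE 0.36) and 2.11 (SE 0.23). Myl2 had 975 and 1146 reads in WT, 2 and 0 in KO4, and 176 and 200 in KO8. Pln had 0 in both KO4 libraries (34.9-fold lower with the floor of 3 counts).

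Of 15 tested mesoderm genes, 7 fell in KO4 and 0 rose, while 6 rose and 4 fell in KO8. Those that fell in both were Foxc1 (-4.32 and -1.50), Foxc2 (-4.32 and -0.72), Osr1 (0 and 2 reads in KO4, 40 and 35 in KO8, 119 and 169 in WT) and Meox1 (-3.59 and -2.36), the bracketed values of the others being log2 fold changes in KO4 and KO8. Without the first KO8 library the KO8 calls of Meox1 (adjusted p = 0.0688) and Foxc2 (0.181) were lost, and that of Foxc2 also without the second WT library (0.0641) or the second KO8 library (0.175). In limma-trend with a pseudocount of 0.5 the KO8 call of Osr1 was lost (adjusted p = 0.109). Foxc2 lost its KO8 call in limma-trend with a pseudocount of 1 (0.0846) or 0.5 (0.104), and with no filter on low counts (0.0678). The primitive streak genes T, at 83 to 131 reads, and Wnt3, at 74 to 185 reads, were called in neither clone. Of 8 tested genes of smooth muscle and mesenchyme, 7 fell in KO4, and in KO8 3 fell (Prrx1, Twist1 and Cnn1) and 2 rose. Thy1 had 4 to 24 reads. Of 7 tested endoderm genes, 2 fell in KO4 and 4 rose in KO8, with the WT libraries far apart in several of them, such as Hnf4a at 580 and 80 reads (named after its values were seen). Cubn and Amn were called in neither.

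Of 10 tested neural genes, 9 rose in KO4 and 0 fell (20.5% and 25.1% of all genes), and in KO8 1 rose and 3 fell (10.7% and 11%). Sox1 had 28 and 45 reads in WT, 3436 and 3262 in KO4, and 129 and 135 in KO8. Of 9 tested pluripotency genes, 6 rose and 2 fell in KO4, and 8 fell in KO8 (11% of all genes). Klf2, on chromosome 8, and Klf4 fell in both clones, by 0.82 and 1.45 on the log2 scale in KO4 and by 1.59 and 0.66 in KO8 (for Klf4 with an adjusted p of 0.0985 without the first KO8 library and 0.0574 without the second), and Tfcp2l1 was called in neither. In KO4 endothelial, blood and cardiac transcripts were thus low together, beside high neural and pluripotency transcripts.

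In NPC cells no factor was called. The limma fit called 0 of 6 tested members in KO4 (3.81% of all genes called) and 0 of 6 in KO8 (6.32%). At an unadjusted p under 0.05 there was 1 in KO4 (Lmo2) and 1 in KO8 (Gata2), and limma-trend called 0 in either clone. Gata2 was well expressed, with 908 and 803 reads in WT, 1001 and 806 in KO4, and 633 and 757 in KO8. Tal1 had 69 and 79, 111 and 86, and 116 and 106 reads in the same order, and Lmo2 205 and 153, 317 and 223, and 217 and 204. The Gata2 libraries of KO8 lay below all others, but the adjusted p was 0.0905.

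Etv2 (0 to 8 reads) and Gata1 (2 to 20 reads) were near the limit of detection in NPC cells. For Gata1 there were 9 and 8 reads in WT, 2 and 2 in KO4, and 20 and 11 in KO8. KO8 thus lay above KO4, as at CM, by 2.52 on the log2 scale (SE 0.82), but this was not called (adjusted p = 0.228). Tek had 92 and 99 reads in WT, 123 and 158 in KO4, and 143 and 82 in KO8. The authors' base means of the other endothelial genes were 2581 and 2344 for Kdr, 1145 and 1019 for Pecam1, 1651 and 1589 for Cdh5 and 1010 and 865 for Tie1 in the KO4 and KO8 tables. These 4 endothelial genes thus had base means of 865 or more in NPC libraries too. On a common scale 7 of the 8 ratios lay below 1, between 0.825 and 0.926, and 1, that of Tal1, above it at 1.03 (50.2% of all genes lay above 1).

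Whether the effect of the knockout differed between CM and NPC was tested with the mean of both clones against WT. Of 5 genes tested at both stages 2 differed (12.9% of all genes), Tal1 by -1.82 (SE 0.27, adjusted p = 0.000340) and Lmo2 by -1.36 (SE 0.19, adjusted p = 0.000222) on the log2 scale. The clones were called in opposite directions for Tal1 and Gata1 at CM, so their mean describes neither clone there.

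Of 9 members tested in primed cells, 0 were called in KO4 (15.5% of all genes called; 3 at an unadjusted p under 0.05 and 0 called by limma-trend) and 2 in KO8 (11.6%). Tek had 190 and 158 reads in WT, 132 and 126 in KO4, and 86 and 113 in KO8, a log2 fold change of -0.69 in KO8 (SE 0.18, adjusted p = 0.00542). Tal1 had 69 and 71 reads in WT, 109 and 94 in KO4, and 148 and 81 in KO8, a log2 fold change of 0.80 (SE 0.22, adjusted p = 0.00938). Kdr had 22 and 23 reads in WT, 12 and 6 in KO4, and 6 and 4 in KO8 (adjusted p = 0.117 and 0.0516). The WT libraries of Kdr lay above those of both clones, although it was not called. The KO8 call of Tek was lost without the first WT library (adjusted p = 0.0920) or the first KO8 library (0.350), and that of Tal1 without the first WT library (0.109), the second (0.0715) or the first KO8 library (0.415).

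Of the other members tested in primed cells, Etv2 had 20 to 45 reads, Gata1 18 to 31, Gata2 28 to 42, Tie1 10 to 34, Lmo2 6 to 12 and Cdh5 0 to 11. Pecam1, which embryonic stem cells also carry, had authors' base means of 1006 and 1055. Pecam1 had the highest base means of the members in the primed and the naive stage.

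In naive cells 6 of the 10 genes could be tested, among 5238 genes of low level, because reads were recovered there only for base means up to about 100. Kdr had 40, 37 and 44 reads in WT, 77, 64 and 69 in KO4, and 80, 66 and 68 in KO8. It rose in both clones, by 0.84 in KO4 (SE 0.23, adjusted p = 0.00768) and by 0.86 in KO8 (SE 0.23, adjusted p = 0.00645), where the median of all genes tested stood at -0.01 and 0.13. Tal1 had 14, 2 and 14 reads in WT, 24, 20 and 11 in KO4, and 31, 23 and 15 in KO8, and was called in KO8 (log2 fold change 1.52, SE 0.49, adjusted p = 0.0320). So 1 member was called in KO4 (11.1% of all genes) and 2 in KO8 (10.6%), on few reads. The call of Kdr in KO4 was lost without the first WT library (adjusted p = 0.0520), and that of Tal1 without the first WT library (0.0558), the second (0.352), the first KO8 library (0.112) or the second (0.0641).

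Gata1 had 9 to 14 reads in the naive WT libraries and 21 to 28 in those of the clones, and Tie1 4 to 9 and 9 to 26. Etv2 had 25 to 61 reads and Lmo2 2 to 10 in all 9 libraries, and Cdh5 had 0 in every library. Pecam1 had authors' base means of 5232 and 5414, Tek 249 and 288 and Gata2 93.6 and 101. Kdr was thus higher than WT in both clones in naive cells. In primed cells its transcripts stood lower in every KO library than in WT, on 23 reads or fewer and with no call. The share of all genes that stood apart in this way in primed cells was not counted.

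**Figure D4:**
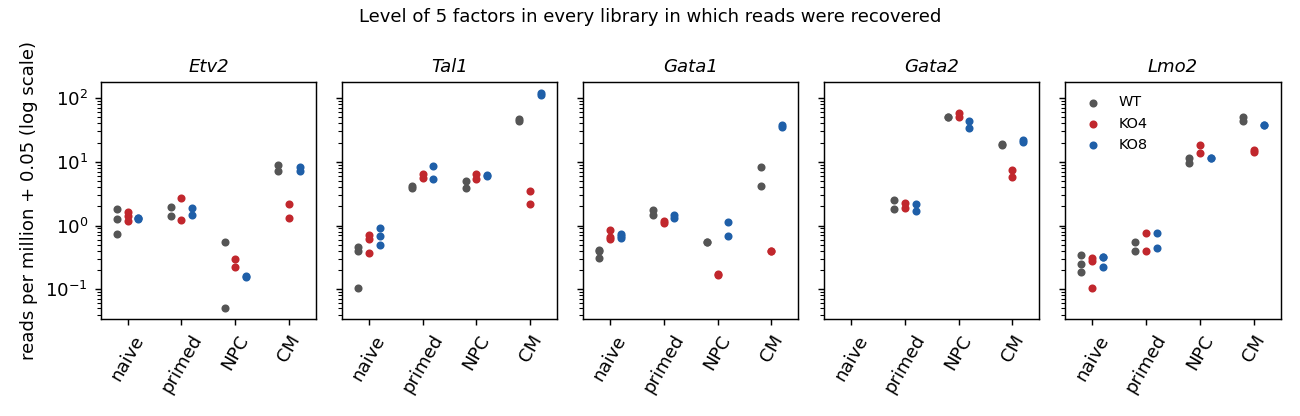
RPM (reads scaled to library depth; log scale, 0.05 added) of 5 factors in each library with recovered reads, by stage and genotype. The clones part at CM, where KO4 lies lowest for all 5 genes. In the other stages many groups overlap or lie close, and the gap of Gata1 in NPC rests on 20 reads or fewer. Gaps from WT on more reads include Gata1 in naive cells and Tal1 in primed cells (both clones) and Lmo2 in NPC KO4. Gata2 has no recovered reads in naive cells.

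To find genes of like pattern, the standardized log2 RPM (0.5 added) of Tal1, Gata1, Gata2 and Lmo2 were averaged over the 18 primed, NPC and CM libraries, and 7822 other genes were ranked by their Pearson correlation with this mean. The 8 genes nearest to it were Prkca (r = 0.991), F2rl3 (0.987), P2ry1 (0.982), Itga2b (0.981), Ptpre (0.979), Gm13889 (0.975), Oit3 (0.974) and Lyl1 (0.973). The averaged genes themselves correlated less with their mean, Tal1 at 0.870, Lmo2 at 0.863, Gata1 at 0.729 and Gata2 at 0.649. The ranking thus gives likeness to the mean, not to each of these genes. P2ry1, F2rl3 and Itga2b are receptors of platelets, and Lyl1 is the closest relative of Tal1. At CM Prkca had 560 and 373 reads in WT, 106 and 125 in KO4, and 799 and 759 in KO8. The points share stages and libraries, so these values are a description.

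For the 5 endothelial genes such a ranking was possible only over the 8 tables' base means, of which those of a stage share the WT libraries. Among 13886 genes the nearest were Tbx20, Unc5b, Cavin3, Tnni1, Cttn, Sgpp1, Rgs3 and Grrp1, with r between 0.991 and 0.997. Tbx20 is a transcription factor of the heart and Tnni1 a troponin of embryonic muscle. With 8 points that share libraries in pairs these values, too, are a description.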

How the data were processed

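RNA-seq of 27 libraries was used. The authors trimmed reads with Trim Galore 0.6.7, aligned them to mm9 with HISAT2 2.2, took gene counts with featureCounts and made 8 tables, 1 for each clone and stage against WT, in DESeq2 1.46.0. Strand and multimapping settings are not given in the sources used here. The deposited base mean, a signal per gene, is the authors' mean of size-factor normalized reads over the libraries of a comparison. The deposited fold changes, standard errors, test statistics and p-values of the authors' comparisons were not used.

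Reads per library were recovered from both base means of a stage where exactly 1 set of whole numbers gave them. This yielded 14249 genes at CM, 14658 in NPC, 14566 in primed and 7717 in naive cells. At CM it succeeded for 99.5% of genes with base means between 100 and 1000 and for 2.12% above 1000. Recovery was tested on simulated data. Recovered libraries carry no replicate number and are named by their place in the text. A sequenced fragment mostly gave 2 reads, so reads are not independent molecules. The KO8 libraries were brought to the scale of the KO4 table through the WT libraries.

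Genes with at least 10 reads were tested with limma 3.58.1 (voom weights, eBayes) in R 4.3.3, all libraries of a stage in 1 fit, two-sided, with Benjamini-Hochberg adjustment over all genes tested. A gene was called at an adjusted p under 0.05. On simulated counts for the CM comparison of KO4 with WT (11373 genes), the fit called 62% of 50 genes raised by 1 on the log2 scale, 52% of 50 lowered by 1 and 0.0179% of 11173 unchanged genes. Far fewer genes were changed there than the 45.6% called in KO4 at CM, so these shares need not hold for the CM calls. Alternatives changed the scaling, the filter (none, or 60 reads), the samples fitted, the model (limma-trend on log2 values with a pseudocount of 1 or 0.5) and the treatment of genes with several solutions, and left out each library. Ratios of base means were given for base means of at least 10.

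Gene lists and members were chosen with earlier results of these data known. All members were named, and from each list the genes with the smallest p among those called with the same sign in both clones (up to 6 in the endothelial, VEGF and blood lists, up to 4 in the others) and up to 2 of the highest level called in neither. Others are marked as chosen after their values were seen. The planned likeness ranking over all libraries was not possible for genes without recovered reads, and was replaced by the rankings described. Python 3.11.15 with numpy 2.4.6, pandas 2.3.3, scipy 1.17.1 and matplotlib 3.10.9 was used for all other steps.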

Additional observations from a re-analysis of the deposited data

Results flagged for a closer look

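At CM the effects of the clones differed for all 5 tested members, by the test of KO8 against KO4 in limma. The log2 difference was 2.21 for Etv2, 5.42 for Tal1, 6.61 for Gata1, 1.70 for Gata2 and 1.35 for Lmo2, higher in KO8 in each case, where 24.7% of all genes tested were called higher in KO8.

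The effect of the knockout, as the mean of both clones against WT, also differed between CM and NPC for Tal1, by -1.82 on the log2 scale, and for Lmo2, by -1.36. For Tal1 the clones were called in opposite directions at CM, and for Lmo2 in the same direction.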

How the results depend on the processing

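At CM, leaving out each library in turn called 5 to 5 members in KO4, 2 to 3 in KO8, 5 to 5 in KO8 against KO4 and 2 to 3 in CM against NPC. In NPC it called 0 to 1 in KO4 and 0 to 1 in KO8, in primed cells 0 to 0 in KO4 and 0 to 3 in KO8, and in naive cells 0 to 2 in KO4 and 1 to 2 in KO8. The endothelial genes lower in both clones numbered 16 to 20, and the blood genes lower in KO4 and higher in KO8 15 to 20. With each clone fitted with WT alone, 1 member was called in NPC KO4. With size factors outside chromosome 8, or with the most even of several solutions, 1 was called in primed KO4. In primed KO8, 1 was called with no filter and 4 with the most even solutions. In naive KO4, 2 were called with scaling by total reads, size factors outside chromosome 8, at least 60 reads, each clone alone, limma-trend with either pseudocount, or the most even solutions. In limma-trend with a pseudocount of 0.5 the endothelial count was 12 in place of 19. The log2 fold change of Etv2 in CM KO8, not called, changed sign with size factors outside chromosome 8 (0.0089) and spanned -0.19 to 0.14 over the left-out libraries. Of the other values of single genes, 654 held their direction and side of the threshold and 10 lost the call when no library was left out, and 500 and 23 did so when one was. The causes were not tested. Most genes with base means above 1000 at CM could not be tested in the main fit, since reads were recovered for only 2.12% of them. No paired analysis was possible because the recovered reads carry no replicate number.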

Other observations

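The embryonic globins could be tested in NPC cells. Hbb-y, a yolk sac beta globin, had 228 ± 6.1 normalized reads (SD, n = 2) in WT, 25.4 ± 11 in KO4 and 386 ± 7.3 in KO8. Hba-x, the embryonic alpha globin, had 177 ± 2.6, 23.9 ± 11 and 330 ± 27, and Hbb-bh1 91.1 ± 21, 10.5 ± 1.6 and 141 ± 18. All 3 fell in KO4 (adjusted p at most 0.0118, limma, 1.82% of all genes tested fell), and Hba-x (adjusted p = 0.0170) and Hbb-y (0.0195) rose in KO8 (3.69% of all genes rose). Tal1 and Gata1 were not called in NPC cells, where Gata1, at 20 reads or fewer, was lowest in KO4 and highest in KO8.

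Of 34 endothelial genes tested in NPC cells, 5 rose in KO4 and 0 fell (1.99% and 1.82% of all genes), and 1 rose and 3 fell in KO8 (3.69% and 2.63%). Those higher in KO4 were Sox7, Esam, Robo4, Cd93 and Aplnr, and those lower in KO8 Vwf, Notch4 and Gja5. Of 30 tested in primed cells, 2 rose and 2 fell in each clone, a share near that of all genes (6.43% higher and 9.03% lower in KO4, 5.84% and 5.72% in KO8), with Vwf and Notch4 lower and Plvap higher in both. In naive cells 3 of 20 rose in each clone (5.86% of all genes in KO4, 7.43% in KO8), among them Cd34, at 6.41 ± 3.0 normalized reads (SD, n = 3) in WT, 26.4 ± 5.5 in KO4 and 29.7 ± 13 in KO8, and Plvap, which lies on chromosome 8. These genes were named after their values were seen.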
